A study of Bos taurus and Felis catus with 14 samples.

Results

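Of the 1305 hairpin precursors predicted by miRWoods in cow and cat, 234 were candidates outside any named family with a mature product on only 1 arm of the hairpin. They were chosen by 2 features of the deposited calls, a name that gives the species and a number but no family, as in bta-Novel5 or fca-Novel70, and the arm written in each product record, so the arm count and the name are descriptions of the set and not findings about it. The set held 124 of the 283 bovine candidate hairpins of that naming and 110 of the 187 feline ones. All 234 had exactly 1 product record, and in all 234 that product lay on the side of the precursor that its arm label named. The alternative form, candidate hairpins with a product on both arms, numbered 159 in cow and 77 in cat.

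The calls came from small RNA sequencing of 10 tissues of 3 Angus steers, in 10 libraries, and of skin and muscle of 3 domestic short hair cats, in 4 libraries. The bovine tissues were the iris, retina and optic nerve, brain stem, bone marrow, submandibular lymph node, dental pulp, oral papillae, corium and penis. Of the bovine libraries, 8 came from 1 steer, while brain stem and corium each came from another steer, so tissue and animal cannot be told apart for those 2 tissues. The cat libraries were 2 of skin and 2 of muscle. A single cat gave both tissues, and each of the others gave skin only or muscle only. Per the paper the cats were neutered males. Each species had 1 call set made over all of its libraries. In these call sets a locus has a position and an arm but no value per tissue, per animal or per replicate. The paper's supplement gives read counts for its predicted microRNAs, which were not used here.

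A microRNA gene is transcribed as a longer RNA that folds into a hairpin. The nuclear enzyme Drosha usually cuts the hairpin out, and the cytoplasmic enzyme Dicer trims it to a short duplex. The strand from the side nearer the 5′ end of the hairpin is called 5p and the one from the 3′ side 3p. One strand is usually retained in an Argonaute protein, where the bases near its 5′ end, the seed, pair with target messages, and the other is usually degraded, so small RNA reads often come mainly from a single arm.

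The known hairpins used for comparison below were the loci with a plain annotated microRNA name or with a family name that carries the candidate tag at its end, as in bta-mir-6526-Novel2, which marks a new member of an existing family. All of them were miRWoods calls from these libraries, so an annotated microRNA that was not called is absent from every count and gap. Single-arm calls made up 43.8% of bovine candidate hairpins (124 of 283, exact 95% interval 38.0 to 49.8%) and 58.8% of feline candidate hairpins (110 of 187, 51.4 to 66.0%). Among loci with a plain annotated name the share was 9.47% in cow (39 of 412) and 14.3% in cat (29 of 203). New members of known families lay far apart in the 2 species, at 60.0% in cow (54 of 90) and 27.8% in cat (25 of 90). Because the share of single-arm calls is what defined the set, no test was made on it. The intervals given here cover counting error over loci only, and the read depth behind each call is not in the files used here.

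The only product lay on the 3p arm in 158 of the 234 hairpins. In cow, 84 of 124 were 3p and 40 were 5p, a 3p share of 67.7% (58.8 to 75.9%). In cat, 74 of 110 were 3p and 36 were 5p, a 3p share of 67.3% (57.7 to 75.9%). The cow share minus the cat share was 0.469 percentage points (95% Newcombe interval -11.4 to 12.4; two-sided Fisher's exact test over loci, adjusted p = 1). The interval still allows a difference of more than 10 points either way. Loci are not replicates, and the p-values here describe the list of calls, adjusted by Benjamini-Hochberg over the 13 comparisons made. None of the 13 passed the adjusted threshold of 0.05, and 2 had an unadjusted p under 0.05.

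Known hairpins with a product on 1 arm gave 3p shares of 65.6% in cow (61 of 93) and 57.4% in cat (31 of 54). The single-arm candidate hairpins exceeded them by 2.15 points in cow (-10.2 to 14.8; Fisher's exact test, adjusted p = 1) and by 9.87 points in cat (-5.48 to 25.4; Fisher's exact test, adjusted p = 0.589), and neither difference passed the test. The feline known set was itself uneven, since 13 of 29 plain annotated loci were 3p (44.8%) against 18 of 25 new family members (72.0%). Against the plain annotated loci alone the feline difference was 22.4 points (Fisher's exact test, adjusted p = 0.139).

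**Figure D1:**
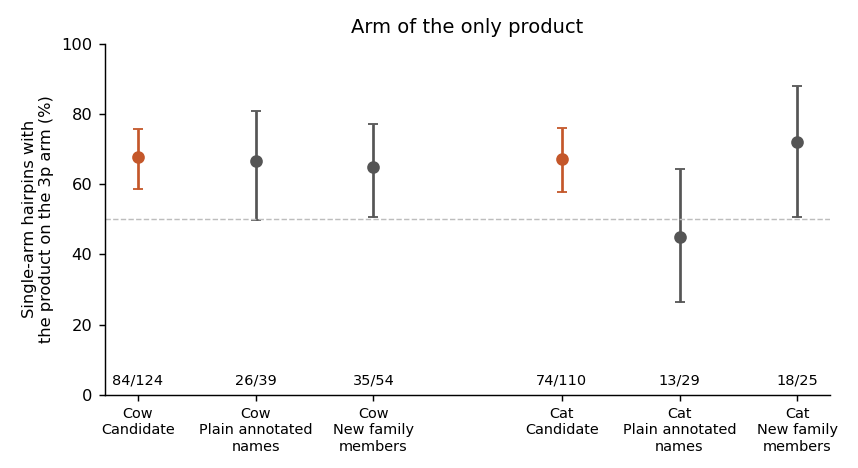
Share of single-arm hairpins whose only product is on the 3p arm (y axis, percent) for candidate loci, loci with plain annotated names and new family members in each species. Points are shares, bars are exact 95% binomial intervals, the fractions below give loci, and the dashed line marks 50%. The 2 candidate sets sit at 67.7% in cow and 67.3% in cat, and the feline plain annotated loci at 44.8% have the lowest share with a wide interval.

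The 3p excess was spread over the genome. More 3p than 5p products were found on 21 of the 30 bovine chromosomes and more 5p than 3p on 7. In cat the counts were 20 and 2 of the 23 sequences that held a member. Of those 20, 4 were unplaced sequences with 1 member each. Some others led by 1 locus, such as chromosome E1 with 4 3p and 3 5p hairpins. Bovine chromosome 3 held 7 single-arm candidate hairpins, all 3p, and chromosome 5 held 8 3p and 2 5p hairpins. On the feline sequence NC_018741.2, taken here as the X chromosome, 7 of 8 were 3p. A few sequences ran the other way: bovine chromosomes 14, 17 and 27 each held 2 hairpins, all 5p, and so did feline chromosome A3.

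Products were of the size of mature microRNAs. The caller scores the median read length of each stack, as the method is described, so this size was in part selected for. In cow, 122 of 124 products (98.4%) measured 20 to 24 nt, and in cat 107 of 110 (97.3%) did, a difference of 1.11 points (-3.34 to 6.24; Fisher's exact test, adjusted p = 1). The median was 22 nt in both species, with quartiles of 21 and 22 nt. The mean was 21.7 ± 1.05 nt (SD over 124 loci) in cow and 21.7 ± 1.04 nt (SD over 110 loci) in cat.

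The 3p products were concentrated at 22 nt. In cow 40 of 84 measured 22 nt and 24 measured 21 nt, and in cat 35 of 74 measured 22 nt and 27 measured 21 nt. The 5p products were flatter, with 13 of 21 nt and 15 of 22 nt among 40 in cow, and 11 and 12 among 36 in cat. The 22-nt share of 3p products was 47.6% in single-arm against 45.9% in both-arm candidate hairpins of cow (difference 1.71 points, -11.2 to 14.7; Fisher's exact test, adjusted p = 1). In cat the shares were 47.3% and 49.4% (difference -2.05 points, -17.5 to 13.6; Fisher's exact test, adjusted p = 1). At this number of loci neither species showed a detectable difference in the 22-nt share between hairpins with 1 and with 2 products. Both classes had passed the same caller, which uses product length.

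The extremes of product length were few. Reads under 17 nt were removed before alignment, as the method is described, and aligned reads could then be trimmed further at the 3′ end. The shortest were bta-Novel267, at chromosome 13:13589075-13589153 on the minus strand, and fca-Novel110, at NC_018723.2:176354493-176354545 on the minus strand, each with a 3p product of 17 nt. bta-Novel88 (5p, 19 nt), fca-Novel106 and fca-Novel180 (3p, 19 nt) were the other 3 products under 20 nt. No single-arm product exceeded 24 nt, a length reached by 6 bovine loci (bta-Novel19, bta-Novel121, bta-Novel156, bta-Novel240, bta-Novel241 and bta-Novel321) and 5 feline ones (fca-Novel21, fca-Novel26, fca-Novel34, fca-Novel83 and fca-Novel95). Among the both-arm candidate hairpins products reached 27 nt in cow and 25 nt in cat.

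Most products sat close to their own end of the precursor, 219 of 234 within 3 nt. The offset is the number of precursor bases outside the product on its own side, before the start of a 5p product or after the end of a 3p product. In cow, 27 of 40 5p products began at the first base of the precursor and 53 of 84 3p products ended 1 nt before the last base. In cat the counts were 25 of 36 and 44 of 74. No 3p product had an offset of 0, in this set or among all 736 bovine and 433 feline 3p products of the 2 call sets, so the 1-nt margin at the 3′ end is shared by every 3p record of the files. According to the description of the method, the precursor of a hairpin with 1 read stack is drawn from that product and its best predicted pairing partner with a small extension, which fixes part of the offset in advance; it is given here with no test.

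The offsets of hairpins with both products were wider. Their 5p products had an offset of 0 in 23.9% of 159 bovine and 28.6% of 77 feline cases, against 67.5% and 69.4% in the single-arm set. Offsets of up to 3 nt covered 65.4% and 68.8% of their 5p products, against 90.0% and 97.2% in the single-arm set. Their 3p products had 2 common positions, 1 nt (62 in cow, 31 in cat) and 3 nt (53 in cow, 29 in cat). In the single-arm set an offset of 3 nt was found for 8 of 84 bovine and 12 of 74 feline 3p products. The median offset of 3p products was 1 nt in the single-arm set and 3 nt in the both-arm set of each species.

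**Figure D2:**
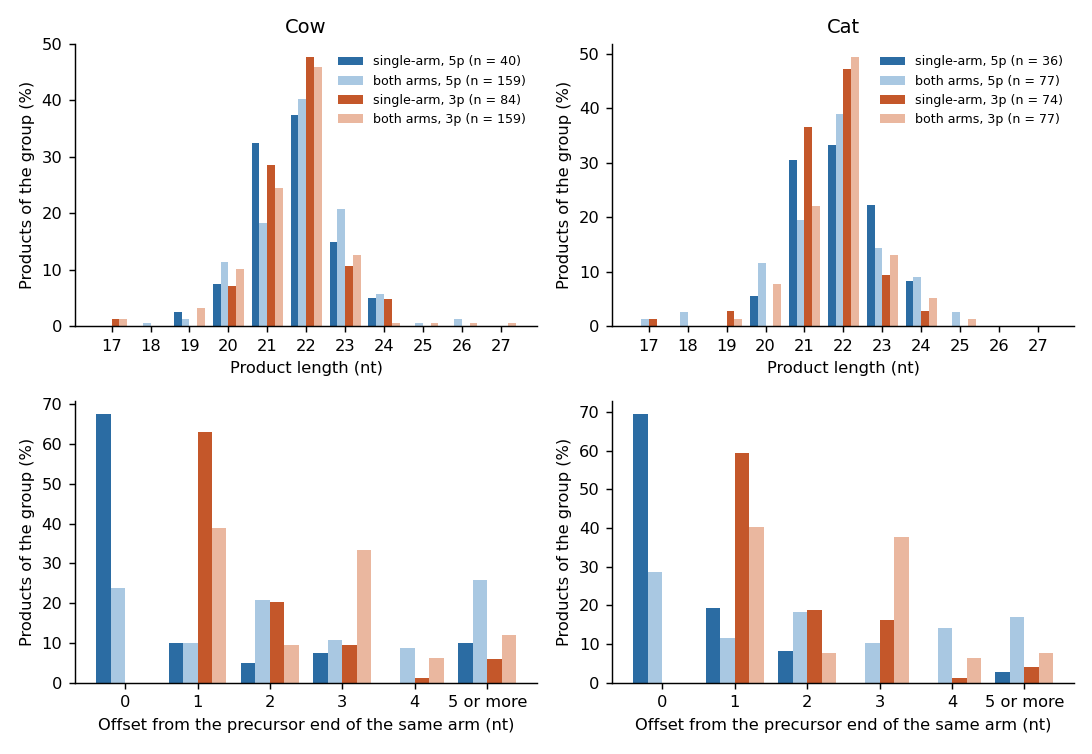
Product length (upper panels, nt) and offset of the product from the precursor end of its own arm (lower panels, nt) as the percent of products in each group, for cow and cat. Dark bars are single-arm and pale bars both-arm candidate hairpins, blue for 5p and orange for 3p; n is the number of products. Lengths peak at 22 nt in all 8 groups, while single-arm offsets gather at 0 nt (5p) or 1 nt (3p) and both-arm 3p offsets have a second peak at 3 nt.

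A small group of single-arm hairpins had the product deep inside the precursor. Offsets of 10 nt or more were found in 9 bovine and 4 feline loci, and all 13 had precursors of 77 nt or longer. The offset is itself part of the precursor length, so a large offset goes with a long precursor by construction. In cow the largest was that of bta-Novel98, on chromosome 1:123275905-123276006, plus strand. Its precursor of 102 nt, the longest in the bovine set, held a 22-nt 3p product 18 nt from the 3′ end. bta-Novel6 (5p) and bta-Novel294 (3p) had offsets of 17 nt, and bta-Novel281 (5p) one of 15 nt.

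The feline extremes were larger. fca-Novel85, on the unplaced sequence NT_394413.1 at 401-517, plus strand, had a precursor of 117 nt and a 22-nt 3p product with 40 nt beyond it. fca-Novel159, on chromosome E3 at 37082575-37082695, plus strand, had the longest precursor of all members, 121 nt, and an offset of 30 nt. fca-Novel7 (5p) had an offset of 21 nt and fca-Novel144 (3p) one of 16 nt. Between these and the loci near the end lay a gap: 1 locus in each species had an offset of 4 to 9 nt.

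Precursor spans are given without a test, since the caller sets them in part. The median was 67 nt in cow (quartiles 62 and 75.25 nt, range 41 to 102 nt) and 66.5 nt in cat (62.25 and 80 nt, 42 to 121 nt), against 66 nt in the both-arm hairpins of each species, which ranged from 48 to 146 nt in cow and from 53 to 104 nt in cat. Precursors of 80 nt or longer made up 15.3% of bovine (19 of 124) and 26.4% of feline (29 of 110) single-arm hairpins, with exact 95% intervals of 9.48 to 22.9% and 18.4 to 35.6%. The both-arm shares were 10.1% (16 of 159, 5.86 to 15.8%) and 11.7% (9 of 77, 5.49 to 21.03%). The intervals of the 2 classes overlapped in each species, which is not a test and does not show that the shares are equal. In cat the long precursors were 22 of 74 3p hairpins and 7 of 36 5p hairpins, and in cow 10 of 84 and 9 of 40. The part of the precursor left after the product and its offset, which holds the loop and the opposite strand, had medians of 43 nt (3p) and 44 nt (5p) in cow and of 44 nt and 42 nt in cat.

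At the lower end, 4 precursors were shorter than 50 nt. bta-Novel88, at chromosome 19:9540899-9540939, plus strand, spanned 41 nt with a 19-nt 5p product at its first base, which left 22 nt for the loop and the opposite strand together. fca-Novel181, at NC_018728.2:81344306-81344347, minus strand, spanned 42 nt with a 21-nt 5p product and 21 nt left. bta-Novel326 (45 nt) and bta-Novel215 (48 nt), both 3p, had 23 and 24 nt left. In each of these 4 a second product as long as the first would leave at most 3 nt of the deposited span for a loop.

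**Figure D3:**
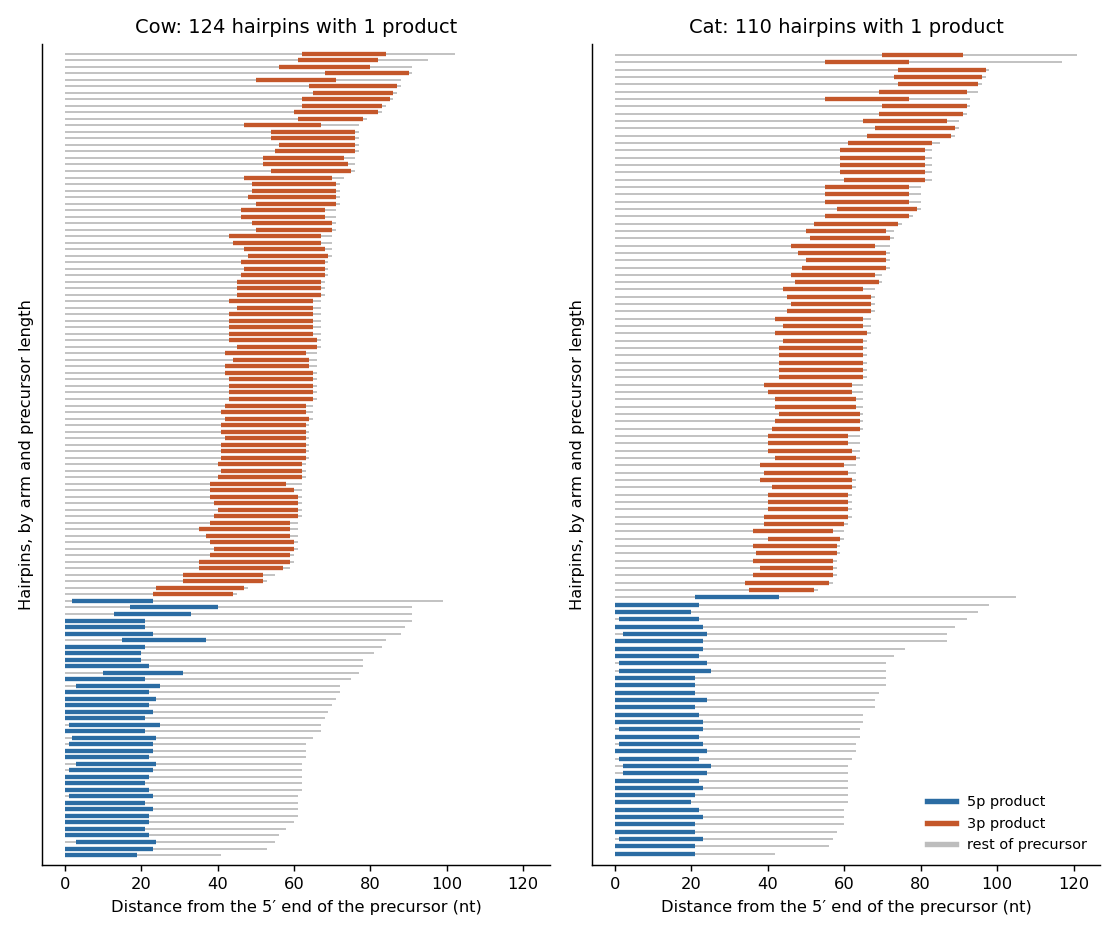
Every single-arm candidate hairpin drawn from the 5′ end of its precursor (x axis, nt), with cow at left and cat at right, 1 line per hairpin. Grey lines are precursors, blue segments 5p products and orange segments 3p products, sorted by arm and precursor length. Of the 234 products, 219 lie within 3 nt of their own end of the precursor, the 13 with an offset of 10 nt or more stand away from it, and the feline panel has more precursors of 80 nt or longer (29 against 19 in cow).

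Some hairpins shared the whole layout of precursor length, arm, product length and offset. The commonest layouts held 5 loci each, for example a 66-nt precursor with a 22-nt 3p product and an offset of 1 nt in cat, near the median of the set. A less usual one was an 83-nt precursor with a 22-nt 3p product and an offset of 2 nt, found in 4 feline loci. Of these, fca-Novel91 was on chromosome E1, and fca-Novel186, fca-Novel86 and fca-Novel22 were each the only call of any kind on an unplaced sequence, NT_398192.1, NT_406556.1 and NT_444820.1. Another 3 feline loci, fca-Novel42, fca-Novel48 and fca-Novel49, shared an 80-nt precursor with a 22-nt 3p product and an offset of 3 nt, all on the X chromosome. fca-Novel48 and fca-Novel49 shared the plus strand and were separated by 9859 nt, while fca-Novel42 was on the minus strand at 97546-97625, close to the first base of the sequence. Whether loci of 1 layout share their sequence was not tested, since no genome was used here. These layouts were picked after their values were seen.

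Single-arm candidate hairpins were found on all 30 bovine chromosomes and on 23 of the 28 feline sequences with any call. The highest count was 10, on bovine chromosomes 5 and 19 and on the feline sequences NC_018724.2, NC_018728.2 and chromosome E3. Bovine chromosome 2 held 8 single-arm hairpins and 1 both-arm hairpin, and feline chromosome NC_018729.2 the reverse, 2 and 8. Both strands were used: 61 plus and 63 minus in cow, 45 plus and 65 minus in cat.

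Chromosomes dense in known microRNAs did not always hold many members. Bovine chromosome 21, with 56 known hairpins, held 1 single-arm candidate hairpin, and chromosome 5, with 25 known hairpins, held 10. Feline chromosome E3 held 10 single-arm candidate and 9 known hairpins. On the X chromosome were 4 of 124 bovine members (3.23%) against 52 of 502 known hairpins (10.4%), a difference of -7.13 points (-10.7 to -1.80; Fisher's exact test, adjusted p = 0.149). In cat 8 of 110 (7.27%) against 34 of 293 (11.6%) were on X, a difference of -4.33 points (-9.81 to 2.84; Fisher's exact test, adjusted p = 0.589). Neither passed the test after adjustment. The both-arm candidate hairpins were also few on X, 4 of 159 in cow (2.52%) and 1 of 77 in cat (1.30%). The bovine difference was -8.67 points and passed it when known hairpins were limited to plain annotated names (Fisher's exact test, adjusted p = 0.0414), and it was -3.56 points when neighbours within 10 kb were counted once (Fisher's exact test, adjusted p = 0.589).

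**Figure D4:**
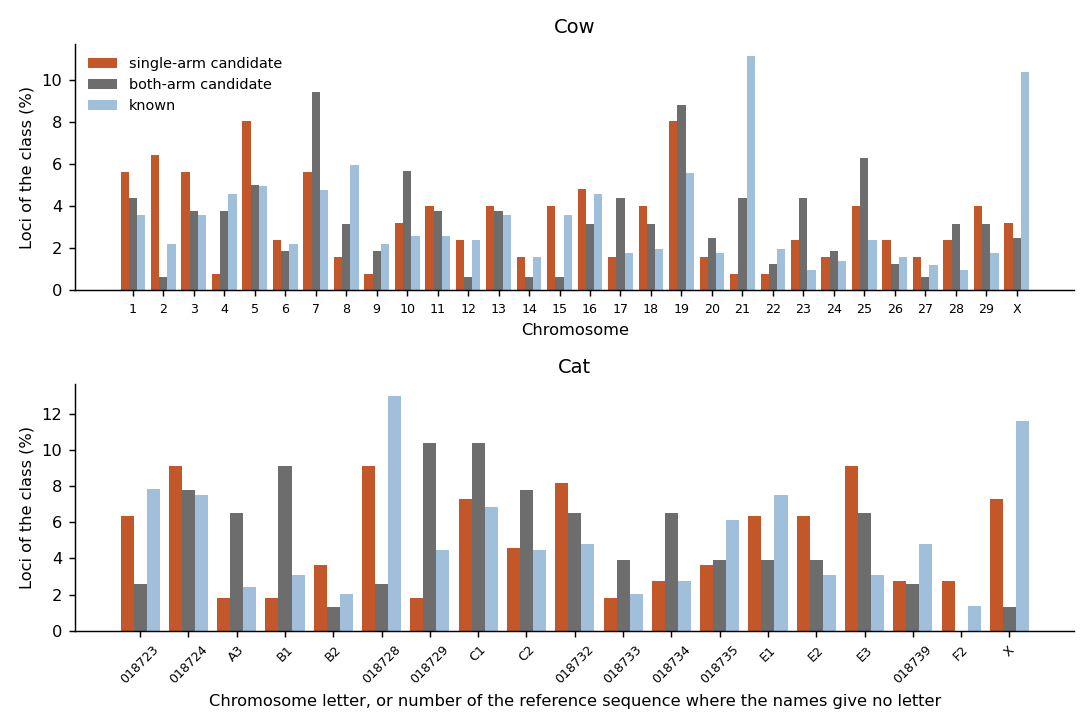
Percent of each class of hairpin (y axis) on each chromosome for single-arm candidate, both-arm candidate and known loci, cow above and cat below; unplaced feline sequences are left out. Feline sequences carry a letter where a locus name in the files gives one and otherwise the digits of their reference number. Known loci peak on bovine chromosomes 21 (56 loci) and X (52 loci), where 1 and 4 single-arm candidate hairpins lie.

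Most single-arm candidate hairpins stood alone among the calls, the only loci that could be counted as neighbours. With every call counted, 115 of the 124 bovine and 102 of the 110 feline members had no other locus within 10 kb. Most both-arm candidate hairpins stood alone too. Another call lay within 10 kb of 7.26% of single-arm and 10.1% of both-arm candidate hairpins in cow. In cat the shares were 7.27% and 14.3%, and these differences were not tested. The gap to the nearest known hairpin had a median of 1.54 Mb in cow (quartiles 0.400 and 4.25 Mb) and 2.39 Mb in cat (0.759 and 5.92 Mb, over the 106 members with a known hairpin on their sequence). Known hairpins themselves are often clustered, with 34.7% of bovine and 46.8% of feline ones within 10 kb of another. Within 10 kb of a known hairpin lay 1 of 124 bovine members (0.806%) and 1 of 110 feline members (0.909%), a difference of -0.103 points (-4.22 to 3.59; Fisher's exact test, adjusted p = 1).

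The both-arm candidate hairpins were within 10 kb of a known hairpin in 7 of 159 cases in cow (4.40%) and 2 of 77 in cat (2.60%). The single-arm share minus the both-arm share was -3.60 points in cow (-8.05 to 0.669; Fisher's exact test, adjusted p = 0.270) and -1.69 points in cat (-8.12 to 2.79; Fisher's exact test, adjusted p = 1). Within 50 kb lay 3.23% of single-arm and 8.18% of both-arm candidate hairpins in cow, and 2.73% and 6.49% in cat, with neither difference past the test (Fisher's exact test, adjusted p = 0.417 and 0.515). At a distance of 1 Mb the shares were closer, and within 1 Mb of a known hairpin lay 41.9% of single-arm and 43.4% of both-arm candidate hairpins in cow, and 30.9% and 31.2% in cat.

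**Figure D5:**
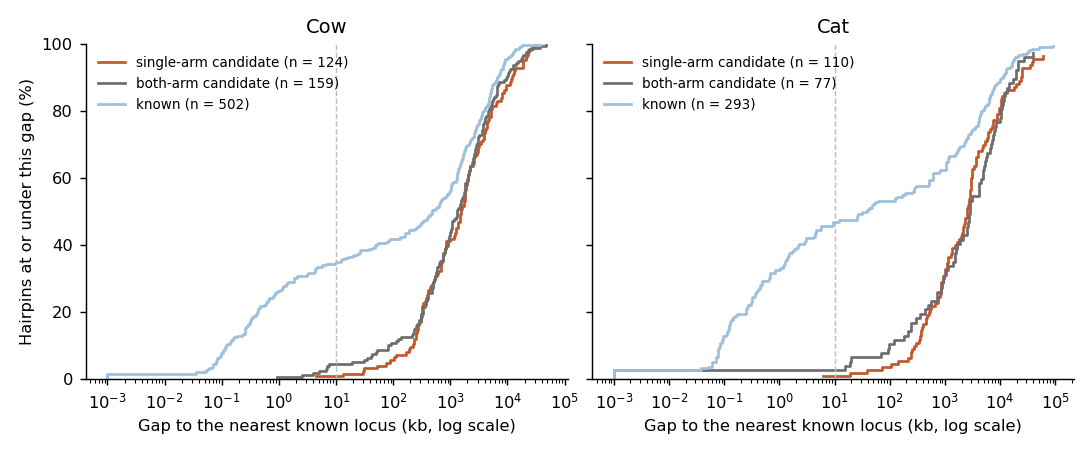
Cumulative percent of hairpins (y axis) at or under a given gap to the nearest known locus (x axis, kb, log scale) for single-arm candidate, both-arm candidate and known hairpins, in cow and cat. Overlapping loci are drawn at the left edge, the dashed line marks 10 kb, and a curve stops short of 100% where a sequence holds no known locus. The single-arm medians are 1.54 Mb in cow and 2.39 Mb in cat and the both-arm medians 1.33 and 2.73 Mb, to the right of the known medians of 0.484 and 0.0318 Mb.

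The member nearest to a known hairpin was bta-Novel331 at chromosome X:30309763-30309824, plus strand, with a 22-nt 3p product 2 nt from its end. It lay 4552 nt from bta-mir-6526-Novel2, 6491 nt from bta-mir-6526-2 and 9782 nt from an unnumbered new member of the mir-6526 family, all on the same strand. All 4 had precursors of 62 nt and a product on the 3p arm only. The feline counterpart was fca-Novel171 at NC_018729.2:41950581-41950639, plus strand, with a 59-nt precursor and a 22-nt 3p product. It lay 6226 nt from fca-mir-200c and 6648 nt from a new member of the mir-141 family, both on its strand and both with products on both arms. The microRNAs miR-200c and miR-141 are known as a cluster that restrains the transition of epithelial cells to a mesenchymal state.

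A few more lay within 50 kb. bta-Novel88 was 13519 nt from bta-mir-142, a microRNA of blood cells, on the opposite strand. bta-Novel26 was 29275 nt from bta-mir-219-2, a microRNA of oligodendrocytes, and bta-Novel301 was 30560 nt from bta-let-7b, of the let-7 family that marks differentiated cells. In cat, fca-Novel153 was 19142 nt from a new member of the mir-1842 family and fca-Novel140 was 37946 nt from fca-mir-9-Novel2, of the neuronal miR-9 family. Of the 124 bovine members, 27 had a hairpin named mir-2284 or mir-2285 as their nearest known locus; such names make up 93 of the 502 known bovine hairpins and none of the feline ones. At the far end, bta-Novel38 was 32.3 Mb and fca-Novel18 was 61.0 Mb from the nearest known hairpin called on its chromosome. A call named after its position, outside the known class, lay 29.5 Mb from fca-Novel18.

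Pairs of single-arm candidate hairpins within 10 kb of each other numbered 2 in cow and 3 in cat. bta-Novel212 and bta-Novel210, on the minus strand of chromosome 15 with 869 nt between them, both had a 3p product, of 21 and 22 nt, in precursors of 69 and 67 nt. bta-Novel204 and bta-Novel323 lay 8994 nt apart on opposite strands of chromosome 18, with 3p products of 21 and 22 nt. Another hairpin of the same kind, bta-Novel324 (3p, 22 nt), was 15170 nt from bta-Novel204. In cat, fca-Novel48 and fca-Novel49 on the X chromosome were the pair of like layout described above.

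The other 2 feline pairs overlapped on opposite strands. fca-Novel132 and fca-Novel128, on chromosome E2 at 14530616-14530680 and 14530617-14530679, shared 63 nt. The 3p product of the first and the 5p product of the second covered the same 21 positions on opposite strands. fca-Novel63 and fca-Novel53, at NC_018732.2:20340859-20340956 and 20340868-20340940, shared 73 nt, and their products, both 5p and both 22 nt, lay at opposite ends and shared no position. In cow 1 member overlapped a locus on the other strand: bta-Novel4 (5p) shared 63 nt with the both-arm hairpin bta-Novel12, and their products shared 17 positions. The assignment of reads between the strands of such pairs was not tested.

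Overlap with an opposite-strand call was found for 1 of 124 single-arm and 7 of 159 both-arm candidate hairpins in cow (difference -3.60 points, -8.05 to 0.669; Fisher's exact test, adjusted p = 0.270). In cat it was found for 4 of 110 (3.64%) and 10 of 77 (13.0%), a difference of -9.35 points (-18.9 to -1.48; Fisher's exact test, unadjusted p = 0.0230, adjusted p = 0.149). The direction was the same in both species, and neither passed the test after adjustment. An overlap is counted for each call that takes part in it, and the 4 feline members formed 2 pairs. The p-values and intervals treat such loci as independent, which they are not. No single-arm member overlapped a known hairpin on the other strand in either species.

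Other members lay near a both-arm candidate hairpin. bta-Novel71 (3p, 21 nt, 61-nt precursor) was 146 nt from bta-Novel68 and bta-Novel156 (3p, 24 nt, 60-nt precursor) 284 nt from bta-Novel155. bta-Novel88 was 6790 nt from bta-Novel83 and fca-Novel10 (5p, 23 nt, 65-nt precursor) 3204 nt from fca-Novel13. Each of these pairs was on 1 strand, so a member with 1 observed arm was next to a hairpin with both in 4 cases.

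The loci named in the study's text or family list included 10 members. Of those described above, the paper calls bta-Novel210 a mirtron, whose ends match the splice junctions of an intron. It calls bta-Novel212 a half-mirtron and places both in the MCAM gene. It places the half-mirtrons bta-Novel71 and bta-Novel68 in PLD2, and fca-Novel10 and fca-Novel13 in an intron of ARHGEF10L. It also shows the expression of the 3p product of fca-Novel110 in skin and muscle. The members not described above are given here. bta-Novel5 at chromosome 7:16114874-16114944, minus strand, and fca-Novel70 at NC_018724.2:7861768-7861831, minus strand, both had a 21-nt 3p product and no 5p product, in precursors of 71 and 64 nt with offsets of 1 and 3 nt. The paper places both in the same intron of TYK2 and describes their precursor sequences as nearly identical. For its drawing of the bovine hairpin it moved the ends to match the feline span. bta-Novel257 at chromosome 28:10336045-10336115, plus strand, had a 20-nt 3p product in a 71-nt precursor, 2.61 Mb from the nearest known hairpin. fca-Novel34 at C2:151881112-151881182, minus strand, had a 24-nt 5p product in a 71-nt precursor, 1.36 Mb from fca-mir-26a-1. On the feline X chromosome, fca-Novel45 at 119064829-119064893, minus strand, had a 21-nt 3p product in a 65-nt precursor, 0.932 Mb from fca-mir-506. No other call of any kind lay nearer to it. The paper places fca-Novel45 in a cluster with feline-specific precursors that had been identified earlier, so its distance here holds for the calls only.

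Cow and cat members were also set side by side by the family number of their nearest known hairpin. The nearest families numbered 75 in cow and 58 in cat, and 19 of them served both species. With both gaps under 1 Mb, 9 cow and cat combinations remained, of which 5 had their product on the same arm. Since most members of both species were 3p, many unrelated combinations would match in arm too. Some loci, such as bta-Novel72, bta-Novel326 and fca-Novel39, entered more than 1 combination. Members of a family that differ by letter, such as mir-26a and mir-26b, counted as the same family. The combinations included bta-Novel289, 0.499 Mb from bta-mir-208b, and fca-Novel175, 0.570 Mb from fca-mir-208b, a microRNA of heart and slow muscle. Both had a 22-nt 3p product at an offset of 1 nt, in precursors of 65 and 72 nt. bta-Novel71 and fca-Novel88 were 0.262 and 0.251 Mb from mir-195, but the first had a 3p and the second a 5p product. Position near the same family does not show that 2 hairpins are the same gene, and their sequences were not compared.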

How the data were processed

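Per the labels, reads were trimmed with cutadapt 1.15 and aligned with Bowtie 1.2.11, with SAMtools also listed in the submitters' processing notes. The authors ran miRWoods, which scores read stacks and then hairpins with random forests, over the pooled libraries of each species and deposited 1 GFF file per species, holding genomic starts and ends of precursors and mature products; the build was not given in the sources used here. Values are positions, with no counts, so read depth was not taken into account. Counts per microRNA given in the paper's supplement were not used here. Gaps, lengths, offsets and overlaps were computed from these positions (Python 3.11.15, pandas 2.3.3, scipy 1.17.1, statsmodels 0.14.6) and tested on simulated loci. Shares of loci were compared by two-sided Fisher's exact tests, adjusted by Benjamini-Hochberg over 13 comparisons (threshold 0.05), with exact binomial and Newcombe 95% intervals. Loci with antisense, tRNA or position-style names entered neither the candidate nor the known class. Named loci were those the paper names, those within 10 kb of a known locus (up to 10 per species), pairs within 10 kb, and extremes of precursor length, product length and offset; any other locus named was picked after its values were seen. The members and lists were chosen with earlier results of these data known. No sequence is shown, since no genome was used here.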

Additional observations from a re-analysis of the deposited data

How the results depend on the processing

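Of 39 alternatives over the 13 comparisons, 28 kept both the direction and the side of the threshold. In 2 more no locus was counted on either side, so the difference was 0: cow against cat at 1 kb, and the bovine opposite-strand overlap with known partners only. The bovine X difference passed the test against plain annotated names only (-8.67 points; Fisher's exact test, adjusted p = 0.0414). The direction turned, with no test passed, in 8: the cow minus cat 3p share without hairpins overlapping an opposite-strand locus (-0.575 points); the cow minus cat share near a known locus at 5 kb (0.806) and 50 kb (0.499); the feline single-arm minus both-arm share near a known locus on the same strand only or with plain annotated names only (0.909 each); the 22-nt share with 5p products in cow (-2.75) and at 21 to 23 nt in cat (8.83); and the cow minus cat product share at 21 to 23 nt (-4.62). The cause was not tested. These differences rest on few loci or are small beside their intervals. No paired analysis was possible because the calls were made once per species over pooled libraries and carry no value per sample; leaving out a library was not possible for the same reason.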

Other observations

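In candidate hairpins with products on both arms, the 3p record was listed first in 85 of 159 bovine cases (53.5%). In cat it was first in 31 of 77 (40.3%). Among both-arm hairpins with plain annotated names it was first in 46.4% of bovine and 46.6% of feline cases. What the order of records stands for is not stated in the sources used here, and no test was made on it.

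Outside the 10 kb range, 3 bovine members lay near each other and far from the known hairpins among the calls. bta-Novel239 and bta-Novel240, on chromosome 2 at 126515819 and 126561944, were 46072 nt apart on the plus strand, and bta-Novel236 followed 0.301 Mb on, while the nearest known hairpin to all 3 was bta-mir-153-1, 18.6 to 18.9 Mb away. The first of them had a 5p product and the other 2 a 3p product. These loci were picked after their values were seen.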
